A study of Caenorhabditis elegans with 12 samples.

Results

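The accessibility of promoters in *set-25* single-mutant muscle was compared with that in wild-type (WT) muscle. The comparison covers every promoter window with at least 1 count in the 3 *set-25* or 3 WT libraries, which was 51278 of the 51519 windows of the table. SET-25 is a histone methyltransferase that places trimethylation on lysine 9 of histone H3 (H3K9me), the mark of silent heterochromatin, whereas MET-2 provides mono- and dimethylation of the same residue. In *Caenorhabditis elegans* this chromatin is concentrated on the distal parts of the autosomes and on repeats, and chromatin that carries it is held at the nuclear envelope by the chromodomain protein CEC-4. Because the 2 enzymes act in part on the same loci, the question was how far the loss of SET-25 alone changes accessibility in a differentiated tissue.

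Body-wall muscle cells were sorted from L3 larvae and profiled by Omni-ATAC-seq, in which the transposase Tn5 cuts and tags open DNA. The *set-25* strain carried the allele *n5021* on chromosome III, and the WT is labelled as the N2 strain. The study's methods describe sorting by an RFP reporter under the *myo-3* promoter on the *gwIs4* array, and the labels name no array in either strain. Muscle from *met-2(n4256)* and from the *met-2 set-25* double mutant, with 3 libraries each, entered the same fit and is given where it shows whether a difference is shared. Each mutation was represented by 1 allele, so the allele and any other difference between the strains cannot be told apart. Genomic DNA of the strains was not measured here, and a closed window and a window missing from a strain's DNA cannot be told apart either.

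Column totals were between 68843022 and 78074609 counts in *set-25* muscle and between 50148450 and 79463030 in WT muscle. The median count of a window in a library was 1352. Replicates differed by more than sampling noise in both genotypes, by a chi-square per window of 3.24 to 3.93 among *set-25* libraries and 3.96 to 6.45 among WT libraries. WT replicate 2 stood apart, with 11.1% of its counts in the strongest 5% of windows. The same share lay between 9.93% and 10.02% in *set-25* libraries and was 10.3% and 9.86% in the other WT libraries (exact two-sided permutation test of all 3 against 3, p = 0.4, where 0.1 is the smallest p possible). The values below are normalized counts, in which each library was brought to the mean column total of the 12 libraries.

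Very few promoters differed in *set-25* muscle. At a false discovery rate (FDR) below 0.01 in edgeR's quasi-likelihood test, 6 of the 51281 windows tested were higher (0.0117%) and 8 were lower (0.0156%) than in WT muscle. Windows of neighbouring transcripts overlap, and these 14 windows lay at 3 separate loci that were higher and 5 that were lower. The log2 fold change (log2FC, *set-25* over WT) of all windows had a median of 0.006, with quartiles of −0.045 and 0.058, against a median standard error (SE) of 0.064. Only 27 windows had an absolute log2FC above 0.5. Of these, 14 were not called, and 12 of the 14 averaged under 20 normalized counts. The other 2, *H12D21.2* and *ZC412.9* on chromosome V, share a window with 71.1, 60.6 and 64.6 in *set-25* muscle, against 56.0, 41.4 and 37.2 in WT muscle (log2FC 0.58, SE 0.22, FDR 0.61).

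**Figure D1:**
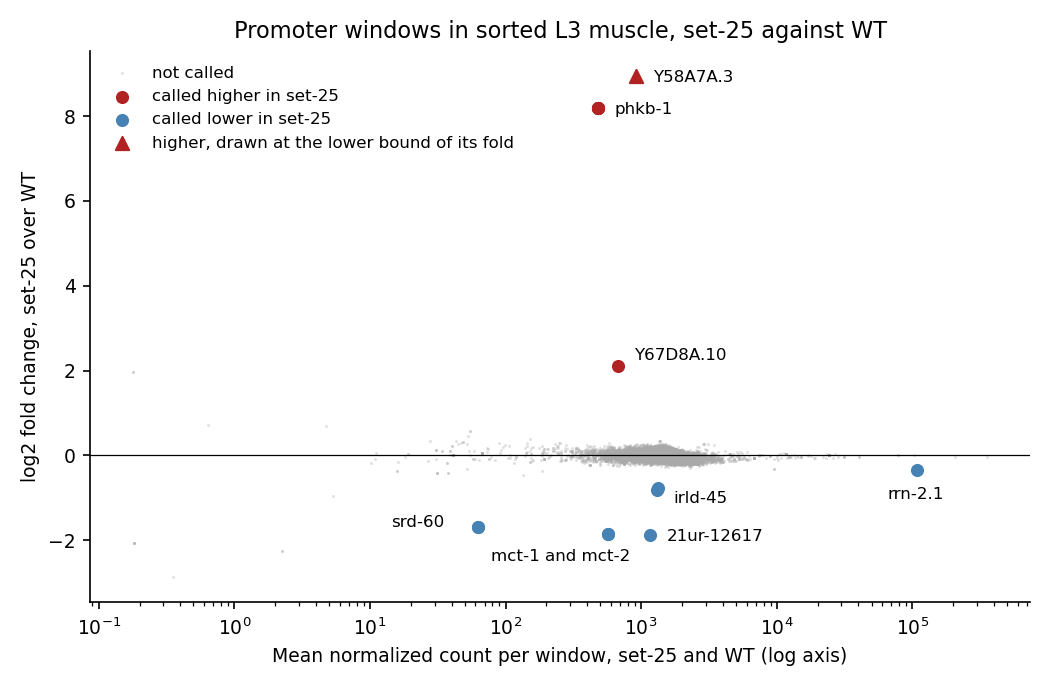
Each point is a promoter window, with its mean normalized count in *set-25* and WT libraries on a log axis and its log2FC (*set-25* over WT). The 14 called windows, in red (higher) and blue (lower), stand apart from a narrow band with quartiles of −0.045 and 0.058, and *Y58A7A.3* is drawn at the lower bound of its fold.

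The window at the start of *set-25* itself was not called. It held 474, 514 and 482 normalized counts in *set-25* muscle, against 527, 575 and 500 in WT muscle, so the libraries overlapped (log2FC −0.12, SE 0.08, FDR 0.73). This level was low in both genotypes, since the median window held 1526 in *set-25* muscle and 1512 in WT muscle. The *met-2* window was not called either, with 1876, 1703 and 1906 in *set-25* muscle and 1752, 1813 and 1931 in WT muscle (log2FC −0.01, FDR 0.99).

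The window of *21ur-12617*, a piRNA gene that the annotation places within *set-25*, did follow the genotype. At chrIII:13288100-13289799 (ce10) it held 486, 480 and 522 normalized counts in *set-25* muscle, against 1834, 1749 and 1893 in WT muscle, or 27.2% of the WT mean (log2FC −1.88, SE 0.07, FDR 2.9e-30). The double mutant, which carries the same allele, had 443, 448 and 435. The *met-2* single mutant had 1819, 1790 and 1860. The 2 strains with the *set-25* allele were thus low and the 2 strains without it high, and this window is the one that checks the labels. The other 14 windows within 20 kb had log2FC between −0.12 and 0.10, among them those of *npp-18*, a nucleoporin gene, and *pgm-2*, and none was called.

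The largest gain was at *Y58A7A.3*, a protein-coding gene on the left part of chromosome V. Its window (chrV:5081024-5082723) held 1744, 1931 and 1815 normalized counts in *set-25* muscle and no count in any WT library. With a floor of 3 counts per library this is at least 494-fold higher (FDR 2.1e-45). The other strains were also almost empty, with 0, 0 and 1.93 in *met-2* muscle and 3.59, 0 and 0 in the double mutant. More than 4 counts were thus found in 1 of the 4 strains, and the double mutant did not share it although it carries the same *set-25* allele. Its 18 neighbours within 20 kb had log2FC between −0.08 and 0.15.

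Next to each other on chromosome IV, *phkb-1* and the non-coding RNA gene *Y67D8A.10* were both higher. *phkb-1* encodes a homologue of the beta subunit of phosphorylase kinase, the enzyme that activates glycogen phosphorylase. Of its 12 windows, 3 that start within a few bases of each other were called, and the first of them (chrIV:3220937-3222636) held 986, 954 and 944 normalized counts in *set-25* muscle and 1.60, 4.04 and 3.28 in WT muscle, from raw counts of 1, 4 and 3. The ratio of the summed counts, scaled by the totals, was 304-fold (95% exact interval for counting error only 154 to 704) and the FDR 2.1e-45. The other 9 windows of *phkb-1*, at other transcript starts, had mean normalized counts over both genotypes between 861 and 1391 and log2FC between −0.17 and 0.08, and none was called. A transcript without a gene name, NR_167556, shares this start and gave the same FDR. The window of *Y67D8A.10* (chrIV:3218391-3220090) held 1076, 1035 and 1164 in *set-25* muscle, against 274, 252 and 236 in WT muscle, a 4.30-fold difference (log2FC 2.11, SE 0.09, FDR 1.6e-29).

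At both genes it was WT muscle that differed from all mutants. *phkb-1* averaged 903 in *met-2* and 927 in double-mutant muscle, and *Y67D8A.10* averaged 1033 and 1012 in the same strains. The windows that surround the pair, 14 of them within 20 kb, had log2FC between −0.13 and 0.08.

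**Figure D2:**
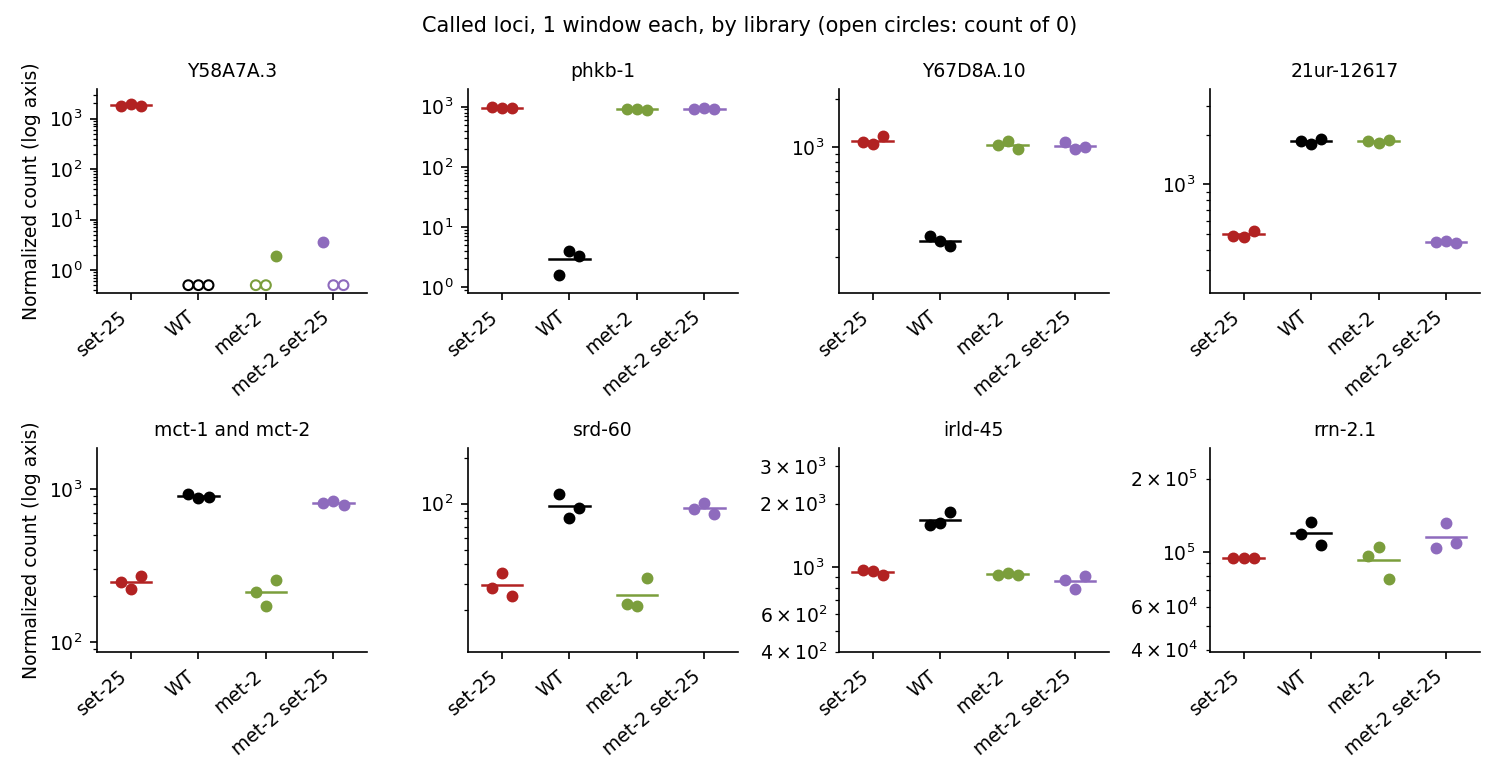
Normalized counts of 1 window for each of the 8 called loci, by library and genotype, on log axes whose ranges differ between panels. Bars are means over the 3 libraries, drawn where no library is at 0, and open circles are counts of 0. At *phkb-1*, *Y67D8A.10* and *irld-45* the WT libraries stand apart from the 3 mutant strains, whereas *Y58A7A.3* is between 1744 and 1931 in *set-25* libraries and at most 3.59 in all others.

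Among the losses, *irld-45* belongs to a family of proteins with the ligand-binding L domain of insulin and EGF receptors. Its 2 overlapping windows were both called. The first (chrV:1646800-1648499) held 968, 961 and 920 normalized counts in *set-25* muscle, against 1583, 1621 and 1827 in WT muscle (log2FC −0.82, SE 0.07, FDR 4.9e-13). As at *phkb-1*, the other mutants resembled *set-25*, with means of 927 in *met-2* and 859 in double-mutant muscle. The 17 neighbouring windows had log2FC between −0.03 and 0.16, and none was called.

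Both other losses among protein-coding genes were in windows of chromosome V that combine several intervals of the genome, and which of these the reads came from is unknown. *mct-1* and *mct-2*, which encode monocarboxylate transporters, share 1 set of counts with 249, 224 and 270 normalized counts in *set-25* muscle and 922, 871 and 889 in WT muscle (log2FC −1.85, SE 0.09, FDR 7.8e-25). *srd-60*, which belongs to a class of serpentine chemoreceptors, held 27.98, 34.9 and 24.8 in *set-25* muscle, against 115, 80.8 and 94.1 in WT muscle (log2FC −1.69, SE 0.20, FDR 4.8e-08). At neither did the *set-25* libraries overlap with WT. Here the 2 single mutants were low together, with *met-2* means of 213 and 25.3, whereas the double mutant resembled WT muscle with 811 and 93.2. Most of their surroundings held no counts at all in *set-25* and WT muscle, namely 27 of 31 windows within 20 kb of *mct-2* and 32 of 34 around *srd-60*.

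The remaining loss was at the ribosomal DNA. The window of *rrn-2.1*, which encodes 5.8S rRNA (chrI:15062790-15064489), held 94582, 94967 and 95191 normalized counts in *set-25* muscle and 119135, 133253 and 107191 in WT muscle, or 79.2% of WT (log2FC −0.34, SE 0.05, FDR 4.4e-05). The *set-25* libraries were close to each other and below every WT library. They overlapped with *met-2* libraries, which held 96963, 104986 and 78004. The double mutant, which carries the same *set-25* allele, held 103789, 132398 and 109015, above every *set-25* library. This call was lost in DESeq2 (adjusted p = 0.428) and once all combined windows were left out of the fit (FDR 0.67), although this window is not one of them.

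The 18S rRNA genes *rrn-1.1* and *rrn-1.2*, which share 1 window beside it, held 8382, 8319 and 8623 in *set-25* muscle, against 10665, 11524 and 9326 in WT muscle (log2FC −0.32, FDR 0.34). This window was called with the 6 libraries alone, with the replicate block and with the share of counts in strong windows as a covariate. Most 5S rRNA genes lie in a separate array on chromosome V, and the window that most of them share had a log2FC of −0.05 (FDR 0.88). All 19 rRNA windows together took 0.251%, 0.249% and 0.250% of the counts in *set-25* libraries and 0.287%, 0.311% and 0.272% in WT libraries (exact permutation p = 0.1, adjusted p = 0.233 over 14 shares tested). The reads of repeated genes cannot be assigned to a copy.

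**Figure D3:**
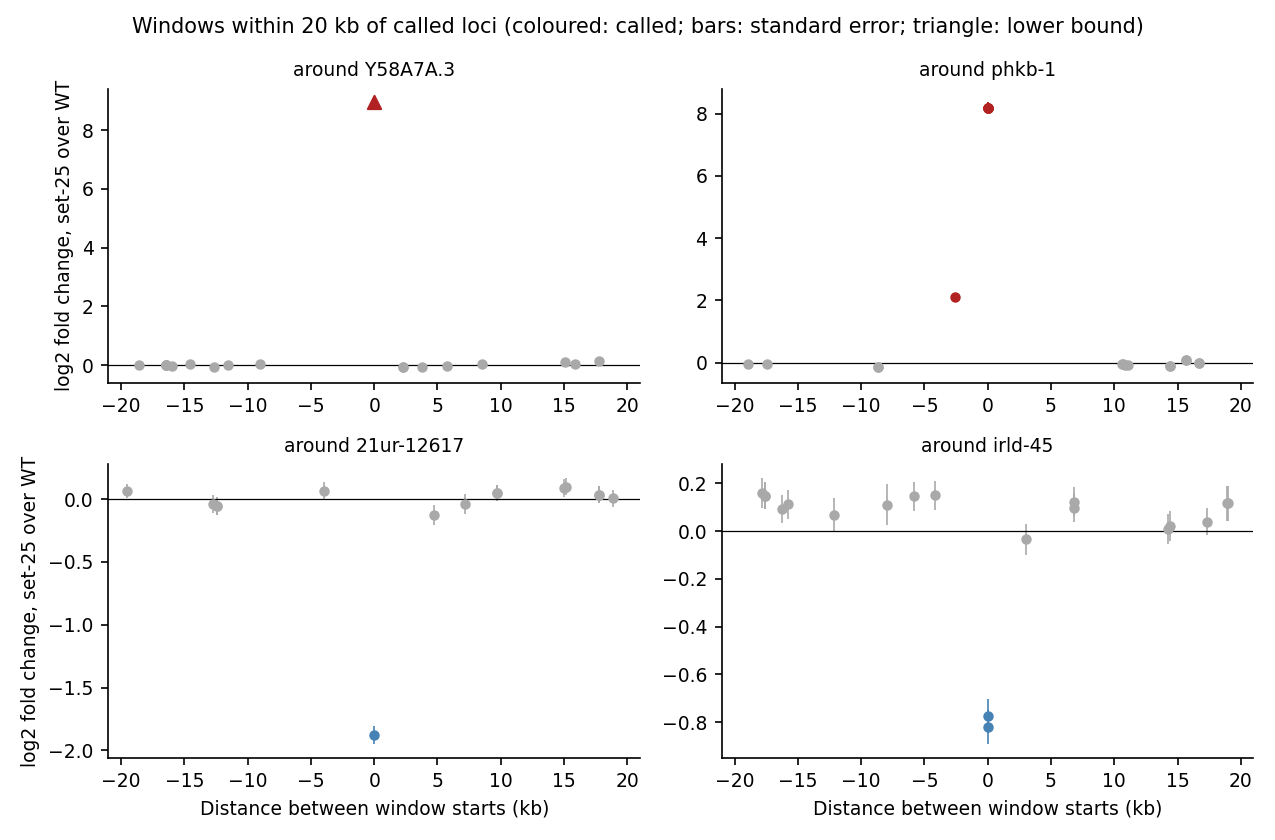
The log2FC (*set-25* over WT) of windows within 20 kb of 4 called loci, by distance between window starts in kb, with the SE as bars. Called windows are coloured, and the triangle marks a lower bound. The uncalled neighbours lie between −0.13 and 0.16, and those of *21ur-12617* between −0.12 and 0.10. Sequence between the windows was not measured.

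None of the other windows passed the threshold in the fit of all 12 libraries. The closest was *21ur-7449*, a piRNA gene on chromosome IV, with 1560, 1438 and 1553 normalized counts in *set-25* muscle, against 1299, 1130 and 1158 in WT muscle (log2FC 0.35, SE 0.07, FDR 0.023). The uncharacterized gene *T26H8.5* on V held 1672, 1700 and 1635 in *set-25* muscle, against 1421, 1293 and 1422 in WT muscle (log2FC 0.28, FDR 0.053). *srab-21*, another serpentine receptor gene of V, had 1555, 1655 and 1695 in *set-25* muscle, against 1413, 1403 and 1239 in WT muscle (log2FC 0.28, FDR 0.11). The next were *21ur-12685*, *T06C12.12* and the C-type lectin gene *clec-28*, all on V, with log2FC of 0.25, 0.27 and 0.26 (FDR between 0.21 and 0.29). Under other settings, *21ur-7449* was called with the 6 libraries alone, the replicate block, DESeq2 and the covariate and without WT replicate 1, *T26H8.5* with DESeq2 (adjusted p = 0.0012) and *srab-21* with the covariate (FDR 0.0095).

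On the lower side the smallest p-values belonged to *F27D4.4*, with 1476, 1497 and 1314 in *set-25* muscle, against 1749, 1643 and 1768 in WT muscle (log2FC −0.27, SE 0.06, FDR 0.13). It was called with DESeq2 (adjusted p = 0.0061) and with the covariate (FDR 0.0012). The other 5 were *scpr-1*, the histone gene *his-62*, *gid-1*, *Y53F4B.11* and NR_166939, with log2FC between −0.28 and −0.23 and FDR between 0.14 and 0.34. These 12 windows were picked by p among those whose *set-25* and WT libraries do not overlap, 1 per locus. Windows within 2 kb of a chosen one were skipped, which left out *21ur-9842*, *21ur-14294* and *21ur-4361* beside *21ur-7449*. Over all windows tested, every *set-25* library was above every WT library at 3893 windows (7.59%) and below at 2744 (5.35%).

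Although single windows seldom passed, small differences were not evenly spread over the genome. In *set-25* muscle, 2284 windows (4.45%) were higher and 1571 (3.06%) lower at an unadjusted p below 0.05. When windows were ranked into 10 classes by their level in the *met-2* and double-mutant libraries, the median log2FC was 0.029 in the lowest class, 0.044 in the second and 0.038 in the third. It then decreased class by class, to −0.027 in the ninth and −0.068 in the highest. In the second class 392 of 5128 windows were higher and 35 lower at this unadjusted p, and in the highest class 10 were higher and 382 lower.

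The gradient was smaller without WT replicate 2, the library with the largest share in strong windows. Without it, the median was 0.015 in the second class and −0.018 in the highest. With the share of counts in strong windows as a covariate, a fit added after the data were seen, the median was 0.016 in the second class and −0.010 in the highest.

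By kind of gene, piRNA windows had the highest median among the classes with over 500 windows. The 13395 piRNA windows, which lie mostly in clusters on chromosome IV, had a median log2FC of 0.038. At an unadjusted p below 0.05, 1001 were higher (7.47%, against 4.45% of all windows) and 79 lower (0.59%, against 3.06%). Since windows of neighbouring transcripts overlap, these are counts of windows, not of separate loci. The 27426 protein-coding windows were balanced, with 1052 higher, 1021 lower and a median of −0.001, and the 7317 windows of other ncRNA genes had a median of −0.015. The median of piRNA windows was above that of protein-coding windows in each of the 10 level classes. Over all piRNA windows it was 0.017 without WT replicate 2 and 0.016 with the covariate. piRNA windows took 23.17%, 23.36% and 23.5% of counts in *set-25* libraries and 23.24%, 22.28% and 22.93% in WT libraries. These shares overlap (exact permutation p = 0.2, adjusted p = 0.311 over 14 shares tested).

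**Figure D4:**
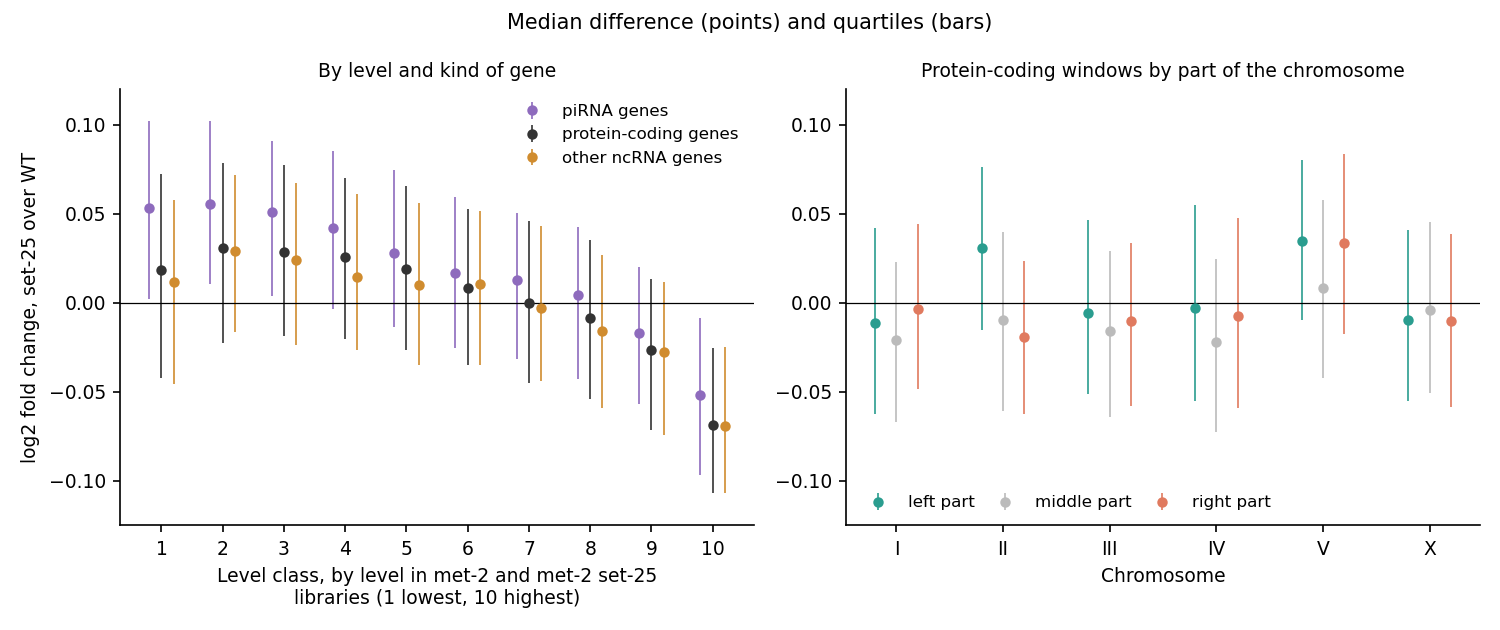
Median log2FC (*set-25* over WT, points) with quartiles (bars), on the left for level classes 1 to 10 and 3 kinds of gene, and on the right for protein-coding windows in the left, middle and right part of each chromosome. Medians decline to −0.068 over all windows of the highest class, and the left part of II and both outer parts of V lie between 0.031 and 0.035.

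Protein-coding windows at 3 chromosome ends had positive medians. Each chromosome was cut into 3 parts of equal length. The left part of V had a median log2FC of 0.035, with 206 of 2166 windows higher (9.51%) and 34 lower (1.57%) at an unadjusted p below 0.05. The right part of V had a median of 0.034, with 167 of 2041 higher and 21 lower, and the left part of II had 0.031, with 117 of 1551 higher and 21 lower. In the other 15 parts the median lay between −0.022 and 0.008.

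By chromosome part, shares of counts were taken only for both outer parts of V and the left part of II, which had the highest medians. They sum the same counts as the medians, so they are not independent evidence. Windows of the left part of V took 4.085%, 4.090% and 4.069% of the counts in *set-25* libraries, against 4.011%, 3.995% and 3.977% in WT libraries. Those of the left part of II took 2.91%, 2.89% and 2.87% in *set-25* libraries, against 2.86%, 2.82% and 2.83% in WT libraries. Neither overlapped between the genotypes, and both had the smallest exact p possible (0.1, adjusted p = 0.233). Windows of the right part of V took 3.724%, 3.747% and 3.715% in *set-25* libraries, against 3.613%, 3.614% and 3.715% in WT libraries. There the lowest *set-25* share and the highest WT share were equal as rounded (exact permutation p = 0.1, adjusted p = 0.233). The adjustment was over 14 shares, which leave out the other chromosome parts. The medians of these parts were less tied to WT replicate 2, since without it they were 0.030 on the left of V, 0.026 on its right and 0.024 on the left of II. For the X chromosome, the share was 13.30%, 13.31% and 12.97% in *set-25* libraries, against 13.1%, 13.6% and 13.3% in WT libraries (exact permutation p = 0.5).

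Several gene families had medians above that of all windows. How many of their windows lie in each chromosome part was not counted. Chemoreceptor genes of the classes sri, srh and str had a median log2FC of 0.048 over 518 windows, of which 59 were higher (11.4%, against 4.45% of all windows) and 1 lower (0.193%, against 3.06%) at an unadjusted p below 0.05. F-box A genes, whose products are thought to select proteins for ubiquitination, had 17 of 185 windows higher (9.19%) and 2 lower, with a median of 0.046, which was 0.026 with the covariate. Of the *pals* genes, which act in the response to intracellular pathogens, 7 of 46 windows were higher (15.2%) and none lower, with a median of 0.029. Nuclear hormone receptors (median 0.028, 414 windows), C-type lectins (0.026, 276 windows) and MATH and BATH domain genes (0.027, 94 windows) followed. For all protein-coding windows, the left part of V had 9.51% higher and 1.57% lower, and its right part 8.18% and 1.03%. Whether a family differed from other windows of the same chromosome part was not tested.

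No window of these families passed the FDR threshold, and the largest values were modest. *fbxa-65* held 1725, 1766 and 1812 normalized counts in *set-25* muscle, against 1554, 1588 and 1393 in WT muscle (log2FC 0.23, FDR 0.35). *math-8* held 1632, 1667 and 1583, against 1501, 1309 and 1345 in WT muscle (log2FC 0.24, FDR 0.34). *pals-20* held 1513, 1468 and 1611, against 1104, 1416 and 1432 in WT muscle (log2FC 0.21, FDR 0.61). Each *set-25* library was above each WT library at these 3 genes, as at 7.59% of all windows. In the irld family the called *irld-45* was an exception, since the median over 65 windows was 0.052, with 5 windows higher and 3 lower at an unadjusted p below 0.05.

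**Figure D5:**
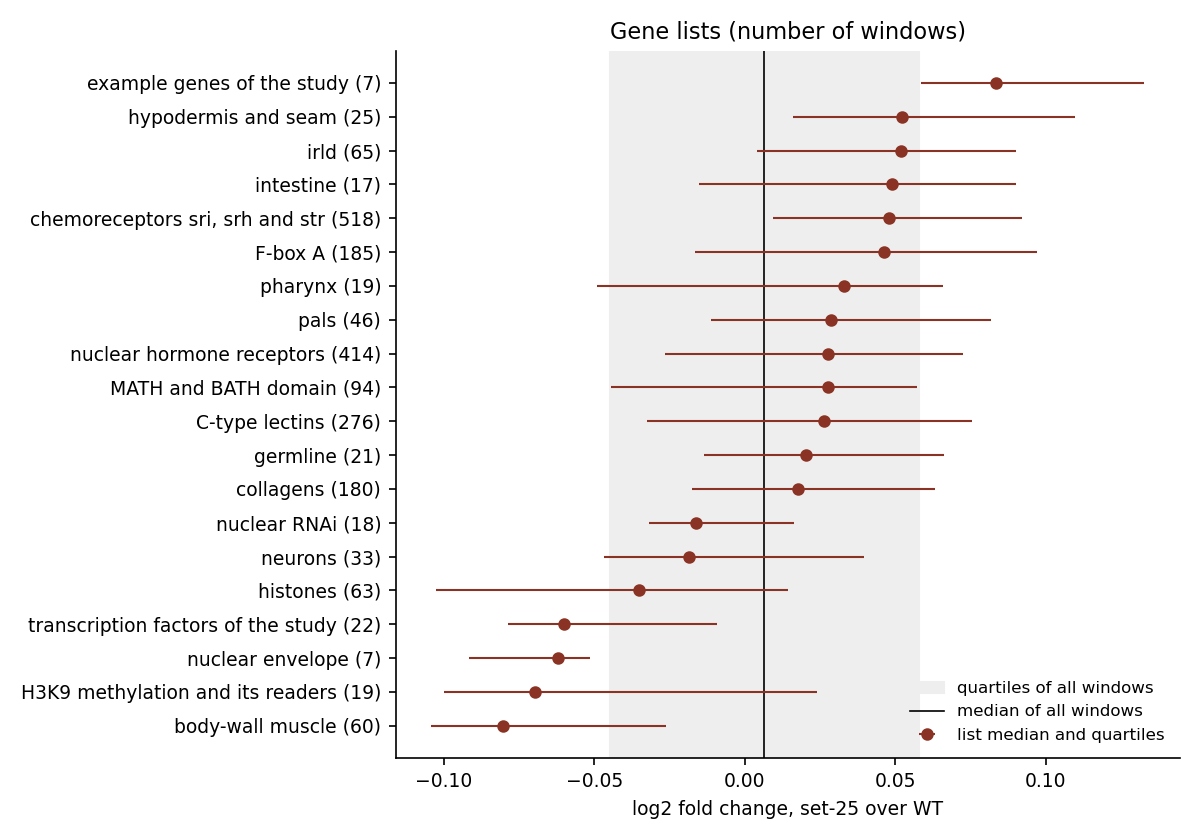
Median log2FC (*set-25* over WT, points) and quartiles (bars) of 20 gene lists, with the number of windows in brackets. The line and the grey band are the median (0.006) and quartiles of all windows. Chemoreceptors (0.048) lie to the right and body-wall muscle genes (−0.080) to the left.

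The 7 genes listed here as the study's examples of RNA derepression without H3K9me all had positive values, with a median of 0.084. None was called. At an unadjusted p below 0.05, 2 of the 7 were higher, as were 4.45% of all windows. The median was 0.129 without WT replicate 3 and 0.052 with the covariate. *sri-62*, a chemoreceptor gene, held 1710, 1812 and 1796 normalized counts in *set-25* muscle and 1456, 1563 and 1747 in WT muscle (log2FC 0.15, FDR 0.62). *pals-30* held 1229, 1220 and 1284 in *set-25* muscle, against 1200, 1043 and 1124 in WT muscle (log2FC 0.15, FDR 0.65), with no overlap. *pals-29* (log2FC 0.11), *fbxa-171* (0.08), *C23H5.12* (0.07), *Y6E2A.7* (0.05) and *pgl-1* (0.05), which encodes a P granule component of the germline, had overlapping libraries. Double-mutant means were below WT means at *pals-29* (1181 against 1238), *pals-30* (1104 against 1123), *fbxa-171* (1406 against 1460) and *pgl-1* (1524 against 1533). They were above WT means at *sri-62* (1687 against 1589), *C23H5.12* (1424 against 1351) and *Y6E2A.7* (1357 against 1353). The study named these genes for RNA in *met-2* or double-mutant animals, which is another measure and another strain than accessibility in *set-25* muscle. The list was also chosen with earlier results of these data known.

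The genes of the H3K9me pathway were not called either. Over 19 windows of 12 genes the median log2FC was −0.070, with 1 window lower (5.26%, against 3.06% of all windows) and none higher at an unadjusted p below 0.05. The median was −0.034 without WT replicate 1, −0.035 without *set-25* replicate 2 and −0.043 without WT replicate 3. The 1 window belonged to *cec-4*, the perinuclear anchor, with 1810, 1827 and 1930 in *set-25* muscle and 2095, 2067 and 2045 in WT muscle (log2FC −0.16, SE 0.07, FDR 0.63). *lin-13*, which encodes a zinc-finger partner of heterochromatin proteins, had a log2FC of −0.13, and *hpl-2*, which encodes a homologue of heterochromatin protein HP1, had −0.10 (FDR 0.708 and 0.725). Nuclear RNAi genes (18 windows, median −0.016) and nuclear envelope genes (7 windows, median −0.062) had no window past the unadjusted threshold.

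A list of 8 of the transcription factors that the study named had a median of −0.060 over 22 windows, and others that it named were not listed. At an unadjusted p below 0.05, 3 of the 22 windows were lower (13.6%, against 3.06% of all windows). All 3 were windows of *eor-1* and *ztf-3*. *eor-1*, a zinc-finger factor, held 1608, 1437 and 1507 in *set-25* muscle, against 1887, 1566 and 1641 in WT muscle (log2FC −0.16, FDR 0.62). *ztf-3* held 1314, 1280 and 1449, against 1476, 1510 and 1520 in WT muscle (log2FC −0.16, FDR 0.62), with no overlap. Histone genes had 5 of 63 windows lower (7.94%) and none higher, with a median of −0.035, and *his-62* had the smallest p-value among them (log2FC −0.24, FDR 0.28).

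The tissue label was checked with muscle genes. Windows of 20 muscle genes had a median of 2079 normalized counts in *set-25* muscle and 2116 in WT muscle, above the medians of 1526 and 1512 over all windows. Many of the muscle windows are overlapping starts of *lev-11* and *unc-89*, to which these muscle medians are weighted. Windows of germline, neuron, intestine, hypodermis and pharynx genes had medians between 1533 and 1656 in *set-25* muscle. *myo-3*, whose promoter drives the sorting reporter, held 349121, 354524 and 352936 in *set-25* muscle, against 354204, 397410 and 325021 in WT muscle (log2FC −0.03, FDR 0.86). This was far above the muscle median, and reads from copies of the promoter on a reporter array and from the gene itself cannot be told apart, so this window does not check the tissue.

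Windows of muscle genes had a median log2FC of −0.080 over 60 windows, of which 3 were lower (5.0%, against 3.06% of all windows) and none higher at an unadjusted p below 0.05. These were a pair of overlapping windows of *unc-22* and the window of *mlc-1*, a myosin light chain gene. The lowest was a window of *unc-22*, which encodes the giant kinase twitchin, with 1865, 1697 and 1958 in *set-25* muscle, against 2184, 2110 and 1977 in WT muscle (log2FC −0.18, SE 0.07, FDR 0.61). Other starts of the same genes differed, since the 5 windows of *unc-22* lay between −0.18 and 0.04 and those of *unc-89* between −0.15 and 0.01. The only windows of the troponin I gene *tni-1* and of *mlc-1* had −0.13 and −0.12. Many of the 60 windows are overlapping starts of *lev-11* and *unc-89*, some with the same counts, so the values of the list are weighted to these genes. The median of the list was −0.022 without WT replicate 2, −0.138 without WT replicate 3 and 0.003 with the covariate, where its sign turned. It was close to the median of −0.068 in the highest level class, and the level of muscle windows in the *met-2* and double-mutant libraries, with a median of 2379, was above the 2198 of that class. The summed level without *myo-3* was 119146, 120975 and 121438 in *set-25* libraries, against 123856, 137572 and 119008 in WT libraries.

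Markers of the hypodermis and seam, the epidermal tissues of the worm, had 4 of 25 windows higher (against 4.45% of all windows) and none lower at the unadjusted threshold, with a median of 0.052. The median was 0.031 without *set-25* replicate 2 and 0.096 without WT replicate 3. *elt-3*, an epidermal GATA factor gene, held 1828, 1860 and 1759 in *set-25* muscle, against 1546, 1684 and 1631 in WT muscle (log2FC 0.16, FDR 0.61), and *elt-1* and *grh-1* both had 0.14. The summed level of the list was 38520, 39153 and 37540 in *set-25* libraries and 35343, 36296 and 38724 in WT libraries, which overlap. Neuron genes had a median of −0.019, germline genes 0.020, pharynx genes 0.033 and intestine genes 0.049. A different share of other cells in the sort and a change within muscle cells cannot be told apart in these bulk libraries.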

How the data were processed

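The authors trimmed ATAC-seq reads, aligned them to ce10 with bowtie2, removed duplicates with Picard, shifted reads for Tn5 and deposited unnormalized counts per promoter window. Windows cover 1700 bp at RefSeq transcript starts, and 565 of those tested combine several intervals. The treatment of reads with several matches is not given in the sources used here. Column totals are sums over overlapping windows, not sequencing depth.

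Counts of 12 libraries, grouped by labels, were scaled by column totals and tested with edgeR 4.0.16 (glmQLFTest, two-sided), with Benjamini-Hochberg adjustment over 51281 windows at an FDR of 0.01. The 238 windows without counts were dropped. Alternatives were TMM factors, DESeq2 1.42.0, filterByExpr, the 6 libraries alone, a replicate block, an FDR of 0.05 and each library left out. A covariate for the share of counts in strong windows and a fit without combined windows were chosen after seeing the data. The test was checked on simulated data.

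Named windows were those called, the 6 of smallest p in each direction without overlap between groups (1 per locus, skipping windows within 2 kb of a chosen one), those at or near *set-25* and *met-2*, and up to 4 per gene list. Other windows named, of rRNA genes, of the study's derepressed genes, of *myo-3* and of *H12D21.2* and *ZC412.9*, were chosen after their values were seen. The comparison, the lists and the rule were chosen with earlier results of these data known. Names were matched by transcript to WBcel235 for 49195 tested windows. The study's methods give 3 replicates per genotype and the labels' growth text fewer, so p-values may in part measure technical spread.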

Additional observations from a re-analysis of the deposited data

How the results depend on the processing

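All 14 called windows kept their call with TMM factors, with filterByExpr, with the 6 libraries alone and with the replicate block. They also kept it with the share of counts in strong windows as a covariate and without any 1 of the 6 libraries. DESeq2 lost *rrn-2.1*, and the fit without combined windows lost *rrn-2.1*, *mct-1*, *mct-2* and both *srd-60* windows, of which the last 4 were left out by construction, and the cause of the loss of *rrn-2.1* was not tested. The count of higher windows was 10 at an FDR of 0.05, 10 with the 6 libraries alone, 11 with DESeq2, 10 with the replicate block and 18 with the covariate, and between 6 and 7 without 1 library. The count of lower windows was 3 without combined windows, 10 with the 6 libraries alone, 10 with the block, 11 with the covariate and 8 without any 1 library. The 6 libraries, the block and the covariate each added *rrn-1.1* and *rrn-1.2*. The cause of these differences was not tested. DESeq2, the 6 libraries, the block and the covariate each added *21ur-7449*, *21ur-9842*, *21ur-14294* and *21ur-4361*.

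Deviations of same-numbered *set-25* and WT libraries correlated at −0.038, 0.039 and −0.033, and no pairing was seen in these values. In WT, *met-2* and double-mutant muscle, replicate 2 had the largest share of counts in the strongest 5% of windows (11.14%, 11.23% and 12.97%). In *set-25* muscle replicate 3 had it, at 10.02%. Whether libraries of the same number shared an experiment was not tested. With the replicate block 10 windows were higher and 10 lower, and 1 of 3 *set-25* and 1 of 3 WT libraries correlated best with their own number.

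Of the 109 named windows under 13 settings, 1393 values kept their direction and side of the threshold, 2 became weaker, 9 stronger and 9 changed sign, none of the 9 called. With the covariate, *unc-84* had 0.016 and *npp-18* 0.037. With 1 library left out, the log2FC ranged from −0.126 to 0.012 at *unc-84*, −0.160 to 0.055 at *npp-18*, −0.109 to 0.016 at *hrde-1*, −0.037 to 0.044 at *met-2* and −0.104 to 0.038 at *lem-2*. The muscle median changed sign with the covariate (0.003). The share of counts in strong windows differed by −0.72 to −0.08 percentage points and that on X by −0.25 to −0.03 without 1 library. Depth limits the values at windows under 20 normalized counts.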
